A study of Arabidopsis thaliana with 91 samples.

Results

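The genes of the central circadian oscillator of Arabidopsis thaliana were followed through every peak list of a chromatin immunoprecipitation sequencing (ChIP-seq) study of histone H3 lysine 4 trimethylation (H3K4me3) and DNA demethylases. The 9 genes were taken by locus identifier, 9 of 27444 nuclear protein-coding genes in the annotation: CCA1 (AT2G46830), LHY (AT1G01060), TOC1 (AT5G61380), PRR5 (AT5G24470), PRR7 (AT5G02810), PRR9 (AT2G46790), ELF3 (AT2G25930), ELF4 (AT2G40080) and LUX (AT3G46640). A gene region was the annotated span plus 1000 bp upstream. In all, 526 of the 851404 peaks in 50 lists touched the 9 regions.

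The lists comprised 29 for H3K4me3, 6 for H3K14ac, 7 for the histone variant H2A.Z and 8 for Myc-tagged proteins, all from leaves of plants 4 to 5 weeks old of the Columbia-0 ecotype, grown in days of 16 h light and nights of 8 h. The hour of harvest was not given in the sources used here. Each library carried a set number in its label (11 sets, 8 of which hold H3K4me3), and the sources do not say what a set stands for. SDG2-ZF lines expressed the catalytic domain of the H3K4 methyltransferase SDG2 fused to a zinc finger that binds the FWA gene and many other sites, under the UBQ10 promoter, in Col-0 or in rdd, a triple mutant of the DNA demethylase genes ROS1, DML2 and DML3. SDG2(H1866K)cd carried a substitution in the catalytic domain. By the peak names its replicates 1 and 2 came from one line and replicates 3 and 4 from another. SunTag-SDG2 brought SDG2 to FWA through dCas9 in the rdr6 mutant, with rdr6 alone and 1 line without a guide as controls. TRBIP1-ZF brought TRBIP1, which interacts with the H3K4 demethylase JMJ14, to FWA in plants with the unmethylated fwa epiallele, and was compared with fwa. TRBIP1-dCas9-MQ1v joined TRBIP1 and a variant bacterial CG methyltransferase in fwa rdr6, and was compared with fwa rdr6, beside 1 library of dCas9-MQ1v. The Myc lists came from Myc-ROS1, Myc-ROS1 with SDG2-ZF, Myc-JMJ14, Myc-JMJ14 with TRBIP1-ZF and Col-0 without a tagged protein. Another 41 samples of the series had no list here and were not analysed here.

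The plant clock is a loop of repressors. CCA1 and LHY are MYB-related factors of the morning that bind the evening element and repress genes of the evening. The pseudo-response regulators PRR9, PRR7, PRR5 and TOC1 act one after another through the day and repress CCA1 and LHY in turn, and the evening complex of ELF3, ELF4 and LUX represses PRR9 and other genes at night. H3K4me3 and H3K14ac are marks of active promoters that usually lie just downstream of the transcription start. H2A.Z replaces H2A at starts and in the bodies of responsive genes. H3K4me3 at several clock genes is known to rise and fall over the day, so the unknown hour of harvest bears on every value below. A list from bulk leaf chromatin cannot tell a mark in fewer cells from a weaker mark per cell.

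The promoters of 6 members are shown because sequence motifs of interest were matched in or next to them. At some of them the chromatin marks and Myc-ROS1 also divided at the start. At PRR5, in contrast, H3K4me3 covered bases before the start in 29 of 29 lists. Each run is the 250 bases before the annotated start in the RefSeq copy of TAIR10 (TAIR10.1), read 5′ to 3′ on the strand of the gene, with capitals for a matched motif on either strand.
CCA1 (AT2G46830, chr2:19245341-19245590, plus strand): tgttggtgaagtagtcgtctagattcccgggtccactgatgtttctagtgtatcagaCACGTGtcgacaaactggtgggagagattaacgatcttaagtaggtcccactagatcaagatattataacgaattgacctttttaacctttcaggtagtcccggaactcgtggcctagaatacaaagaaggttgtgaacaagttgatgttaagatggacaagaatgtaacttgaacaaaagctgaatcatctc
LHY (AT1G01060, chr1:37872-38121, minus strand): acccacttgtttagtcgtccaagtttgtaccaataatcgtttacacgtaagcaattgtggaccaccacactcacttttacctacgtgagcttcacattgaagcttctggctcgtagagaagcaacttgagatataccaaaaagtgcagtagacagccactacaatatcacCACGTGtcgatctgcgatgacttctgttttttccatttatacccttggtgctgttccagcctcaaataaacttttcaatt
TOC1 (AT5G61380, chr5:24674713-24674962, plus strand): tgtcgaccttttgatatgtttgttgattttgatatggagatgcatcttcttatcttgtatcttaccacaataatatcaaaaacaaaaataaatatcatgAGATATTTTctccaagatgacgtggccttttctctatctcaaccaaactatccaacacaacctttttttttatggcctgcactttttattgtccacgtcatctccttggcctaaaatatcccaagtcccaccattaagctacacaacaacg
PRR5 (AT5G24470, chr5:8358547-8358796, minus strand): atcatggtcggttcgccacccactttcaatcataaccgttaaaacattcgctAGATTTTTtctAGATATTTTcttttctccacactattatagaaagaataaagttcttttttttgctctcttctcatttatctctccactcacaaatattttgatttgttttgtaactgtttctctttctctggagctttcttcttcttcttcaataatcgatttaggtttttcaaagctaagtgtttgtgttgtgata
PRR9 (AT2G46790, chr2:19232357-19232606, plus strand): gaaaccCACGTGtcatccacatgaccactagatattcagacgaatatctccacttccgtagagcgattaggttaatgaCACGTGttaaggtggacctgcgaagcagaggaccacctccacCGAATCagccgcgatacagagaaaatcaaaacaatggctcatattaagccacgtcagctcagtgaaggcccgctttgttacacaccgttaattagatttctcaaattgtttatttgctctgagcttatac
LUX (AT3G46640, chr3:17182792-17183041, plus strand): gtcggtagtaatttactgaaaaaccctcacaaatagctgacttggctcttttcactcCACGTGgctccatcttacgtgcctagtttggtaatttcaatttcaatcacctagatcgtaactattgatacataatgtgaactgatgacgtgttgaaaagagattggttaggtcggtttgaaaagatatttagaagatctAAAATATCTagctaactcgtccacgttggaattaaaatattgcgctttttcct

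In a window from 250 bases before to 50 after the start, the evening element AAAATATCT was matched on either strand at 4 of 9 members, beside 2.82% of 27443 coding genes with such a window. Counted from the start, with negative positions upstream, it began at −151 in TOC1, −187 in PRR5, −53 in LUX and 26 in PRR9. The G-box CACGTG, the site of many bZIP and bHLH factors, was matched at 5 members (7.68% of coding genes). It began at −193 in CCA1, −80 in LHY, −201 in PRR7, −193 in LUX, and at −244 and −172 in PRR9. The CCA1 binding site AAAAATCT was matched at PRR5 alone among members, at −198 (7.88% of coding genes). The LUX site GATTCG was found at PRR9 (9.58% of coding genes), and GATACG at ELF3 and ELF4 (5.54%). The printed matches do not overlap one another. These matches are a description of letters and not of binding.

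Start peaks of the 3 chromatin marks reached the 250 bp before the start less often than those of Myc, though H3K4me3 did so in many lists. Within 500 bp of the start, H3K4me3 gave a peak in 234 of 261 pairs of member and list, H2A.Z in 37 of 63, H3K14ac in 23 of 54 and Myc in 26 of 72. Of the pairs with such a peak, the 250 bp before the start were touched in 104 for H3K4me3 (44.4%, beside 40.3% of such pairs over all coding genes), in 5 for H2A.Z (13.5%, beside 22.8%) and in 1 for H3K14ac (4.35%, beside 31.1%). For Myc they were touched in 25 of 26 (96.2%, beside 59.7%), 3 of the 26 being from Myc-JMJ14 with TRBIP1-ZF and the rest from Myc-ROS1. At TOC1 the median H3K4me3 peak ran from 38 to 1043 bp downstream, the H3K14ac peak from 150 to 736 bp downstream, and the Myc peak from −299 to 532 bp. The G-box of LHY was under a peak in 4 of 8 Myc lists, all of them Myc-ROS1, and in 3 of 29 H3K4me3 lists. That of CCA1 was under a Myc peak in 3 lists, 1 of them Myc-JMJ14 with TRBIP1-ZF, and under an H3K4me3 peak in 0 of 29. PRR5 was the member whose H3K4me3 reached upstream most often, with promoter bases under a peak in 29 of 29 lists and its evening element under one in 9.

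**Figure D1:**
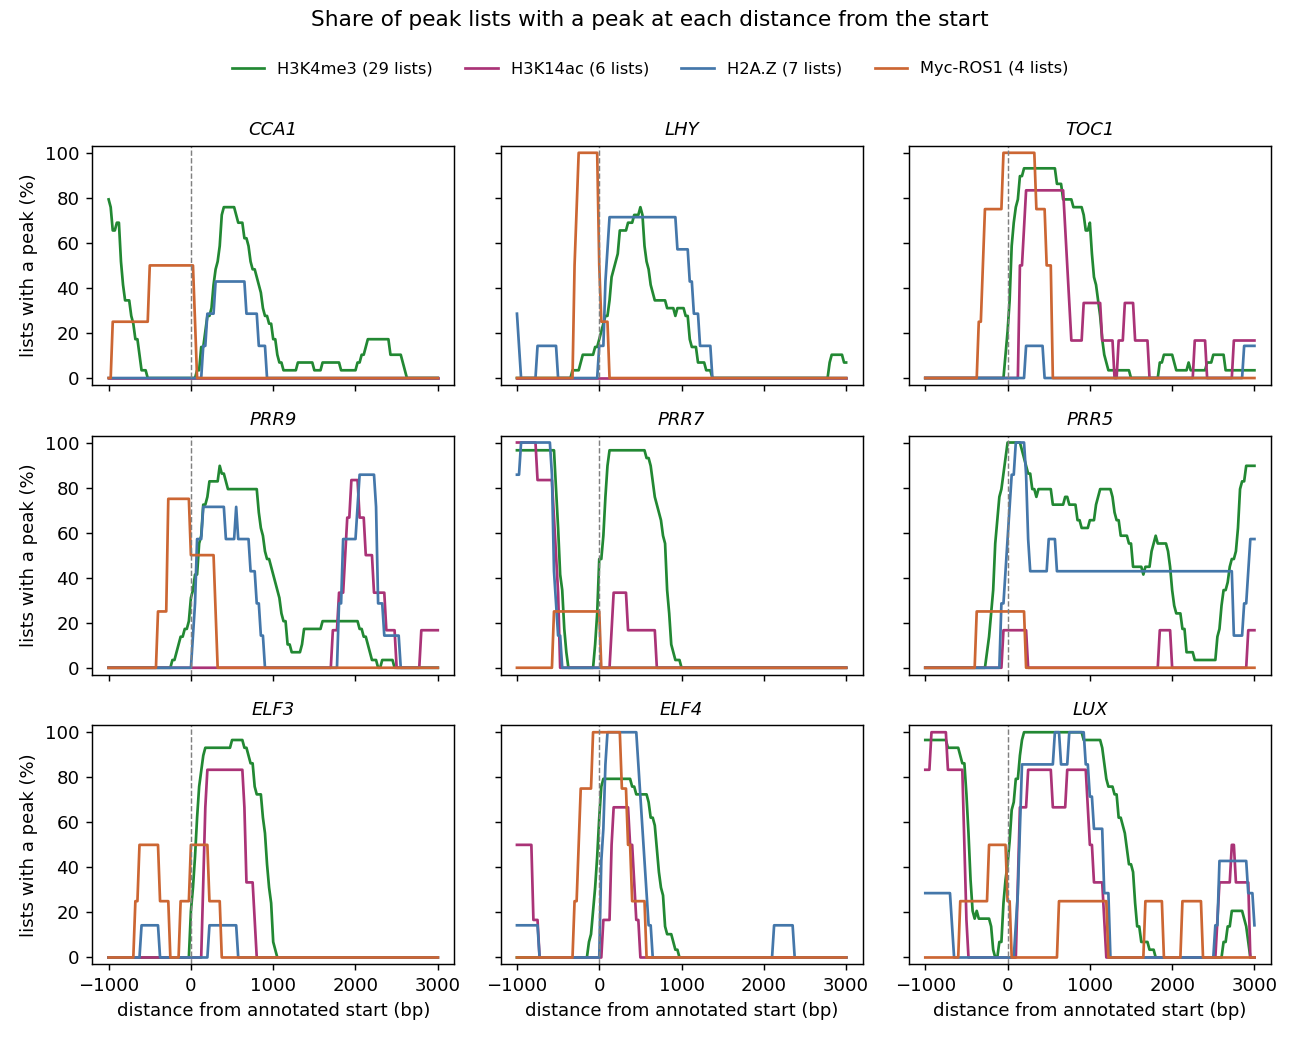
Share of lists (%) with a peak at each distance from the annotated start (bp) of the 9 genes, for H3K4me3 (29 lists), H3K14ac (6), H2A.Z (7) and Myc-ROS1 with or without SDG2-ZF (4). Myc-ROS1 peaks at LHY and ELF4 are centred upstream of the H3K4me3 peaks, H3K14ac is at 0 throughout CCA1 and LHY, and at PRR9 it lies far into the gene.

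The lists differed in size. The number of nuclear peaks in a list was between 9647 and 28847 for H3K4me3, between 5635 and 24156 for H3K14ac, between 12217 and 30556 for H2A.Z and between 808 and 14212 for Myc. The 6 H3K4me3 libraries of set 11 (SDG2(H1866K)cd and its Col-0) had median peak folds over background of 1.67 to 1.96, beside 3.82 to 6.45 in the other 23, so folds are compared only within a list. No 2 lists were identical. In the Col-0 H3K4me3 lists of set 1, 5 of 6 photosynthesis genes of leaf cells had a start peak in both libraries, and 7 of 8 genes listed for seed, flower and pollen had one in neither. OLEO1, an oil-body protein of seeds, had one in both.

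H3K4me3 was listed at the start of all 9 members, in some of them only in part of the lists. A start peak was present in 29 of 29 lists for PRR5 and LUX, in 28 for PRR7 and ELF3, 27 for TOC1, 26 for PRR9, 23 for ELF4 and 22 for CCA1 and LHY. Only 2 members thus had one in every list, beside 25.4% of all coding genes. Without the libraries of set 11 there were 6, all members but CCA1, LHY and PRR9, beside 45.6% of coding genes in those 23 lists. Mean length under H3K4me3 peaks within 500 bp of the start fell in the order PRR5 (590 ± 168 bp, SD, n = 29 lists), LUX (548 ± 95.8), PRR7 (497 ± 128), TOC1 (426 ± 131), ELF4 (425 ± 228), ELF3 (416 ± 123), PRR9 (387 ± 191), LHY (296 ± 238) and CCA1 (187 ± 138). No neighbours in this order differed by more than their SD: the widest gap, between LHY and CCA1, was 110 bp. The ends of the order did differ, as PRR5 exceeded CCA1 in 29 of 29 lists.

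The strength of the strongest start peak, ranked within each list, again placed PRR9, CCA1 and LHY lowest but ordered the others differently. Among coding genes with a start peak, the median percentile of fold over the lists was 92.6 for LUX, 63.0 for TOC1, 59.3 for ELF3, 53.4 for PRR7, 44.0 for PRR5, 39.3 for ELF4, 12.9 for PRR9, 5.73 for CCA1 and 5.66 for LHY. The low places of PRR9, LHY and CCA1 did not hold in set 11, where their medians were 76.9, 44.6 and 39.3. TOC1 was the lowest there among members with a start peak, at 17.2. For PRR7 and LUX the strongest peak was sometimes that of a neighbour. AT5G02820 (RHL2) and AT3G46630 start at −524 and −482 bp from them on the opposite strand, and the summit lay more than 500 bp upstream in 12 of 28 lists at PRR7 and 8 of 29 at LUX.

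**Figure D2:**
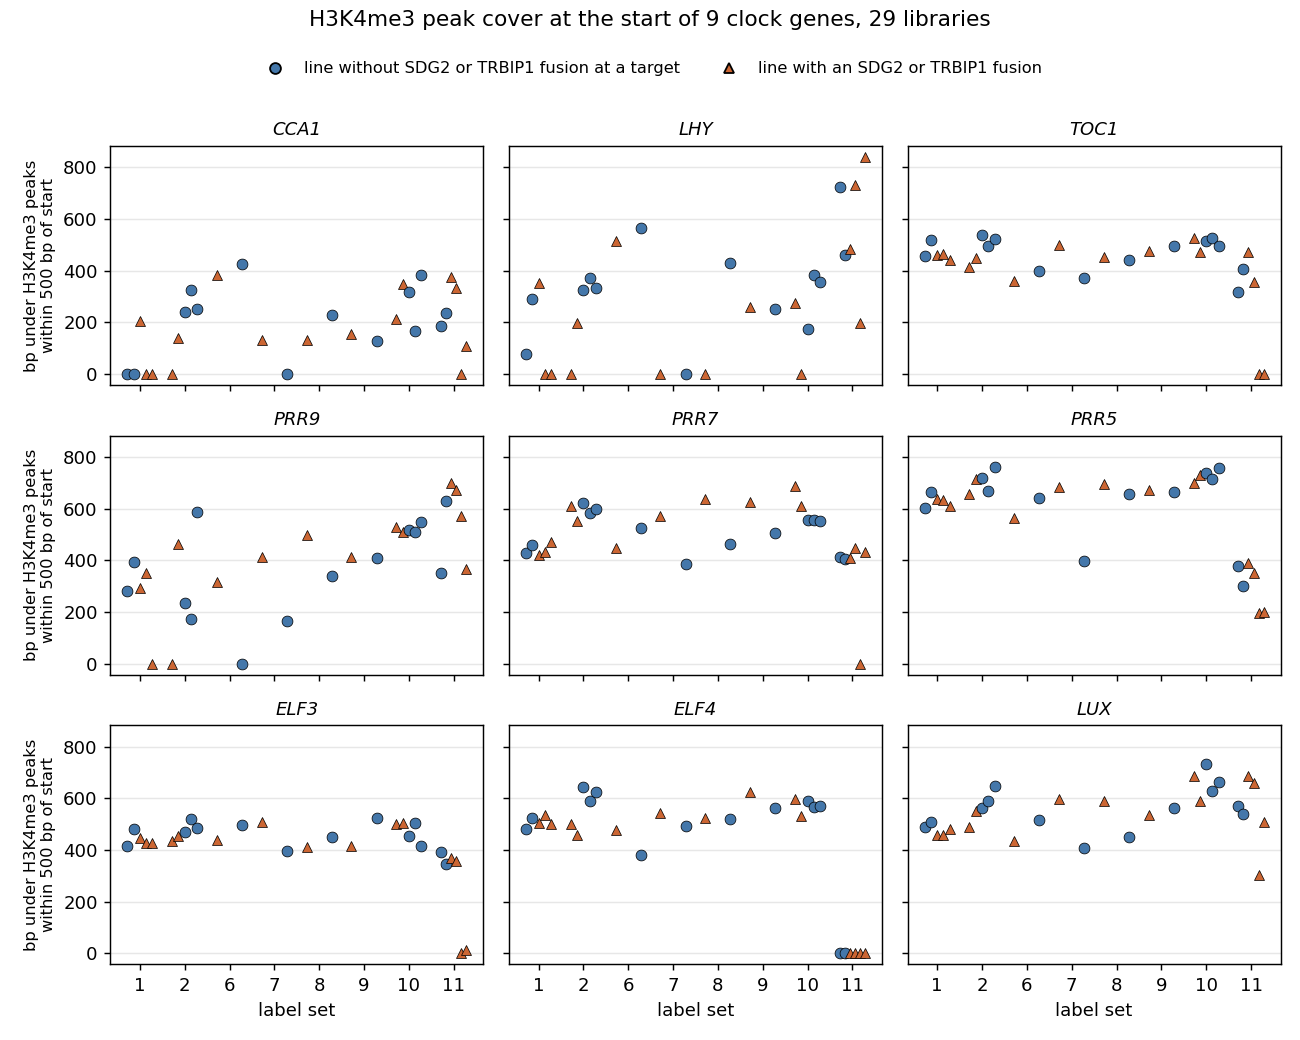
Length (bp) under H3K4me3 peaks within 500 bp of the start in each of 29 libraries, by label set. Circles are lines without an SDG2 or TRBIP1 fusion at a target and triangles are lines with one. ELF4 is at 0 in all 6 libraries of set 11 and between 379 and 643 in the other 23, whereas LHY spreads from 0 to 840.

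CCA1 (chr2:19245591-19248915, plus strand), a MYB factor of the morning, had the lowest mean cover. The upstream part of its region overlaps AT2G46820 (PSI-P), whose own mark reaches in, so its values in this paragraph are given at the start. The comparisons and correlations below use the whole CCA1 region, with the part of PSI-P in it. In Col-0 of set 1 both libraries had 0 bp. The SDG2-ZF libraries had 206, 0 and 0 bp. Its highest values, 427 and 384 bp, belonged to rdd and SDG2-ZF in rdd of set 6, where the fold was at percentile 54.4 and 36.2 of its list. In the lists outside sets 6 and 11 the fold was at percentile 14.9 or below, and in set 11 it reached 51.4. rdd and SDG2-ZF in rdd of set 7 had 0 and 131 bp, so each genotype differed more between the sets than the genotypes did within either set.

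LHY (chr1:33365-37871, minus strand), the partner of CCA1, behaved alike. Its start cover had an SD of 238 bp over the 29 lists, more than 97.5% of 21265 coding genes, beside a median of 102 bp over those genes. In set 6, rdd and SDG2-ZF in rdd had 1353 and 1095 bp of the LHY region under peaks, with folds at percentile 74.9 and 78.5 of their lists, and the same 2 genotypes in set 7 had 0 bp each. In the lists outside sets 6 and 11 the fold was at percentile 9.42 or below, and in set 11 it lay between 23.9 and 62.3. All 6 libraries of set 11 had a peak, with 268 to 1584 bp of the region covered. Its start was without a peak in 7 lists: SDG2-ZF replicates 2 and 3, SunTag-SDG2 replicate 1, TRBIP1-ZF replicate 1, TRBIP1-dCas9-MQ1v replicate 2 and both of set 7. Over the 29 lists the percentile of covered length of LHY and of CCA1 correlated at r = 0.686, a description over lists that share depth and set.

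PRR9 (chr2:19232607-19235179, plus strand), the first of the pseudo-response regulators in the day, was the third member with a wide spread (SD 191 bp, more than 91.3% of coding genes). Col-0 of set 1 had 281 and 392 bp at the start. In the rdr6 background it ranged from 0 bp in SunTag-SDG2 replicate 1 to 588 bp in rdr6 replicate 2, while the replicates of those lines had 464 and 172 bp. In set 6 it was 0 bp in rdd, where LHY and CCA1 were high, and 316 bp in SDG2-ZF in rdd. SDG2-ZF replicate 3 also had 0 bp. Libraries of set 11 were high, at 351 to 699 bp.

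PRR7 (chr5:637681-642030, minus strand) and PRR5 (chr5:8356204-8358546, minus strand), repressors of the afternoon, were covered widely. PRR7 had 428 and 461 bp at the start in Col-0 of set 1, and its lowest non-zero value over the 29 lists was 387 bp. It was without a peak in SDG2(H1866K)cd replicate 3 alone, the shortest H3K4me3 list. PRR5 had 604 and 663 bp in Col-0 of set 1, 564 to 762 bp in the other lists outside set 11 except rdd of set 7 (399 bp), and 197 to 389 bp in set 11. Between-set differences made up 88.3% of its variance, beside a median of 49.8% over coding genes, and 56.2% beside 43.3% without set 11. Its mark ran through the gene: the region had up to 2604 bp under peaks, in rdr6 replicate 2.

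TOC1 (chr5:24674963-24678550, plus strand), the evening repressor that closes the loop with CCA1 and LHY, had 455 and 518 bp at the start in Col-0 of set 1 and 360 to 538 bp in all 23 lists outside set 11. In set 11 it had 0 bp in SDG2(H1866K)cd replicates 3 and 4, of the same line by the peak names, and 317 to 471 bp in the other 4. Without set 11 its SD was 49.6 bp.

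ELF3 (chr2:11058944-11063324, plus strand), the scaffold of the evening complex, was the steadiest member outside set 11, with an SD of 39.1 bp and 411 to 523 bp in the other lists except rdd of set 7 (398 bp). Col-0 of set 1 had 414 and 483 bp. LUX (chr3:17183042-17186959, plus strand; PCL1 in the annotation), the DNA-binding subunit, had 488 and 507 bp in Col-0 of set 1 and 302 to 733 bp over all 29 lists, with the highest median percentile of fold among the 9 genes. Part of its end overlaps AT3G46650 on the opposite strand.

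ELF4 (chr2:16734294-16734953, minus strand), a small protein of the evening complex and the shortest of the 9 genes at 660 bp, was bimodal by set. All 6 lists of set 11 had 0 bp, whichever line they came from, and the other 23 had 379 to 643 bp with folds of 2.66 to 7.20. Differences between sets made up 97.3% of its variance over the 29 lists and 53.0% without set 11, and its SD fell from 228 bp (more than 96.7% of coding genes) to 61.0 bp without set 11. Set 11 also had the lowest folds over all peaks, and the part of that in the missing ELF4 peak was not tested.

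H3K14ac was called at the start of TOC1, ELF3 and LUX in 5 of 6 lists, of ELF4 in 4, of PRR7 in 3, of PRR5 in 1, and of CCA1, LHY and PRR9 in none. Of all coding genes, 26.7% had no H3K14ac start peak in any list, so 3 of 9 members is near that share. In Col-0 the 2 lists had 318 and 371 bp at the start of TOC1, 336 and 303 at ELF3, 271 and 299 at ELF4, and 270 and 367 at LUX. At PRR7 they had 0 and 7 bp, and the peak upstream lay at the start of RHL2. CCA1 and LHY had no H3K14ac base anywhere in their regions in 6 of 6 lists. These were 2 of 9 members, beside 17.9% of coding genes. Leaving out the rdd list or keeping only peaks with a −log10 q of at least 5 could not add a base, so these settings are no check. At PRR9 the mark lay in the gene instead, beginning 1708 to 1926 bp after the start in 5 of 6 lists, with folds of 1.59 to 2.62. H2A.Z covered the same stretch in 6 of 7 lists with folds of 2.06 to 3.01. The sixth H3K14ac list, rdd, was by far the shortest (5635 peaks) and held only 248 bp at PRR7 and 207 bp at LUX, both upstream of the start window.

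H2A.Z was called at CCA1 and LHY, which had no H3K14ac, and differed by set. At CCA1 the start had 355 bp in Col-0 and 312 and 206 bp in SDG2-ZF of set 4, and 0 bp in the 4 libraries of sets 5 and 6. LHY had 2122 bp of its region covered in Col-0, 1385 and 814 bp in SDG2-ZF of set 4, and 1071 and 1367 bp in set 5. In set 6 it had 0 bp in rdd and 21 bp in SDG2-ZF in rdd. The H3K4me3 libraries of these 2 genotypes in set 6 had the highest percentiles of fold at LHY. PRR5 had 2054 to 2425 bp in the 3 libraries of set 4 and at most 686 bp in the other 4. At the evening genes ELF4 had 403 to 772 bp and LUX 431 to 1720 bp in all 7 libraries, whereas TOC1 was at 0 in 5 of 7 and ELF3 at 0 in 5 of 7. PRR9 was at 0 in Col-0 replicate 2 and had 457 to 1407 bp in the other 6. At PRR7 the 410 to 531 bp of H2A.Z lay at the start of RHL2, and within 500 bp of its own start 6 of 7 libraries had 0 bp.

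**Figure D3:**
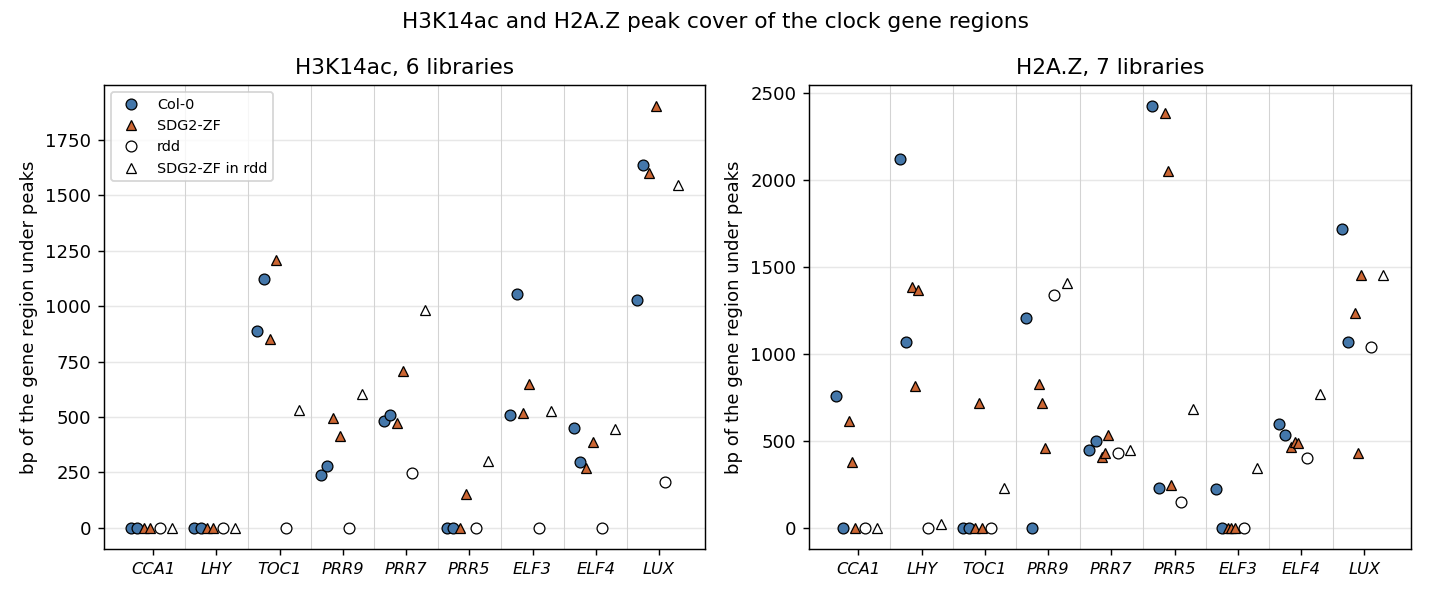
Length (bp) of each gene region under H3K14ac peaks (left, 6 libraries) and H2A.Z peaks (right, 7 libraries), with 1 symbol per library by line. CCA1 and LHY are at 0 for H3K14ac in all 6 libraries, while LHY has 814 to 2122 bp of H2A.Z in the 5 libraries outside rdd and SDG2-ZF in rdd.

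Myc-ROS1, the tagged demethylase that removes 5-methylcytosine, was listed at several clock promoters. LHY, TOC1 and ELF4 had a start peak in all 4 Myc-ROS1 lists, 3 of 9 members beside 9.08% of coding genes. At the start of TOC1 the 2 Myc-ROS1 lists had 800 and 803 bp and the 2 with SDG2-ZF 699 and 536 bp. LHY had 295, 292, 417 and 243 bp and ELF4 607, 732, 711 and 343 bp in the same order. PRR9 had 604, 404, 589 and 0 bp. ELF3 had a peak in replicate 1 of each line alone (348 and 734 bp), and CCA1 and LUX in replicate 2 of each line alone (568 and 547 bp, and 527 and 214 bp). PRR5 and PRR7 had one in Myc-ROS1 replicate 2 only. The Col-0 control without a tag had 0 bp at all 9 members, in a list of 808 peaks from set 6. The Myc-ROS1 lists are from sets 4 and 7, whose controls without a tag had no list here. Myc-JMJ14 and Myc-JMJ14 with TRBIP1-ZF replicate 1 had 0 bp too, while replicate 2 of the latter had 320 bp at CCA1, 502 at TOC1 and 174 at LUX.

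Each fusion was then set against its control by the length of the gene region under peaks. A gene was called higher or lower where the libraries of the 2 groups did not overlap, and a segment was gained or lost where 100 bp or more lay under peaks in every library of one group and under none in the other. With 2 to 4 libraries a group no single comparison can pass 0.05: the smallest exact two-sided permutation p was 0.1 for 3 against 2, 0.0667 for 4 against 2 and 0.333 for 2 against 2.

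In SDG2-ZF, no member was separated from Col-0 in H3K4me3 when all libraries were compared. The median difference was −32.5 bp over the 9 members, beside 34.7 bp over 19245 coding genes with a peak. No member was higher (25.9% of coding genes) and none lower (11.1%), and none gained (7.95%) or lost (0.691%) a segment. LUX had 1846, 1916 and 1938 bp in SDG2-ZF and 1820 and 1909 bp in Col-0, a difference of 35.5 bp (exact permutation p = 0.5), with overlapping groups. Single SDG2-ZF libraries lay outside the Col-0 range, as at CCA1 (579, 48 and 135 bp against 0 and 142 bp) and PRR9 (612, 514 and 205 bp against 608 and 763 bp). TOC1 had 900, 1121 and 1073 bp against 1128 and 1055 bp (−60.2 bp, exact permutation p = 0.8). LHY had 397, 0 and 0 bp against 200 and 418 bp, a difference of −177 bp (exact permutation p = 0.3). In pairs of the same replicate number, ELF4 and LUX were higher and ELF3 lower in both pairs (40.6% and 23.7% of coding genes).

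Lines with SDG2(H1866K)cd had a median difference of −290 bp, beside −78.1 bp over 22244 coding genes. PRR5 alone was lower, with 699, 604, 197 and 613 bp against 1043 and 754 bp in Col-0 (−370 bp, exact permutation p = 0.133). The permutation takes libraries of different SDG2(H1866K)cd lines as replicates of a single group. None was higher (0.265% of coding genes; 4.59% were lower), and none gained (0.0495%) or lost (1.91%) a segment. ELF4 had no peak in either group and was not tested. Among peaks with a −log10 q of at least 5 PRR5 was not called, and its difference was 185 bp, in the other direction. Replicate 3, the shortest H3K4me3 list with 9647 peaks, had 0 bp at CCA1, TOC1, PRR7 and ELF3. Without that library 2 members were higher and 1 was lower, and the median over members was 0 bp. The shares of coding genes were not counted for that setting. Pairing by replicate number leaves replicates 3 and 4 out. LHY, PRR7 and PRR9 were then higher and TOC1 and PRR5 lower (39.6% and 12.7% of coding genes), and the median was also 0 bp.

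SunTag-SDG2 in rdr6 had 2 members lower and 0 higher, where 31.1% of 19392 coding genes were lower and 13.4% higher. ELF3 had 968 and 827 bp against 1000 and 977 bp, and ELF4 had 660 and 617 bp against 747 and 785 bp, both without overlap (exact permutation p = 0.333 each). The line without a guide had 960 bp at ELF3 and 802 bp at ELF4. No member gained (4.08%) or lost (0.454%) a segment. The median difference was −91.0 bp, beside −35.5 bp over coding genes. With libraries paired by number, CCA1 and LHY were lower too, which made 4 lower and 0 higher (39.6% and 18.3% of coding genes). The CCA1 region includes part of PSI-P.

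In the rdd background SDG2-ZF had a median difference of 217 bp, beside 227 bp over 19672 coding genes. No member was higher (43.9% of coding genes) or lower (0.0305%), and none gained (10.2%) or lost (0%) a segment. Over both sets 8 of 9 members had the higher mean, all but LHY, but the 2 sets differed. In set 6 only CCA1, TOC1, PRR9 and ELF4 were higher, and these 4 were higher in both sets when libraries were paired by replicate number, with 0 lower (48.6% and 0.0864% of coding genes). PRR5 fell by 114 bp in set 6, from 886 to 772 bp, and had 1416 bp more in set 7, 1815 against 399 bp. The rdd list of set 7 covered 7.44 Mb of the genome and that of SDG2-ZF in rdd 16.0 Mb, and the part of this in the differences was not tested.

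The TRBIP1-ZF lines had 3 members higher and 1 lower (13.9% and 19.8% of 18503 coding genes). PRR7, whose region also holds the start of RHL2, had 1422 and 1476 bp against 1025 and 1340 bp in fwa. PRR9 had 1087 and 1016 bp against 339 and 938 bp, and LUX 2311 and 2316 bp against 1893 and 1990 bp. ELF3 was lower, with 705 and 767 bp against 871 and 962 bp (−181 bp). Each of these 4 differences had the same sign within sets 8 and 9 and an exact permutation p of 0.333, the smallest possible. Paired by replicate number, 5 members were higher in both sets, with PRR5 and ELF4 beside the 3 above, and ELF3 was lower (22.2% and 30.5% of coding genes). The median over members was 83.0 bp, beside −10.0 bp over coding genes, and no segment was gained (1.03%) or lost (1.16%).

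With TRBIP1-dCas9-MQ1v, PRR7 and ELF3 were higher and LHY lower (14.2% and 23.7% of 18270 coding genes were higher and lower). PRR7, with the start of RHL2 in its region, had 1550 and 1531 bp against 1386 and 1367 bp in fwa rdr6. ELF3 had 901 and 911 bp against 897 and 780 bp, and LHY had 333 and 0 bp against 410 and 761 bp. The dCas9-MQ1v library had 1438 bp at PRR7, 874 bp at ELF3 and 335 bp at LHY. The median was −11.0 bp, beside −12.0 bp over coding genes, and segments were neither gained (1.19%) nor lost (1.41%). Paired by replicate number, PRR7 and ELF3 were higher (21.1% of coding genes) and CCA1, LHY and PRR9 lower (33.5%).

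**Figure D4:**
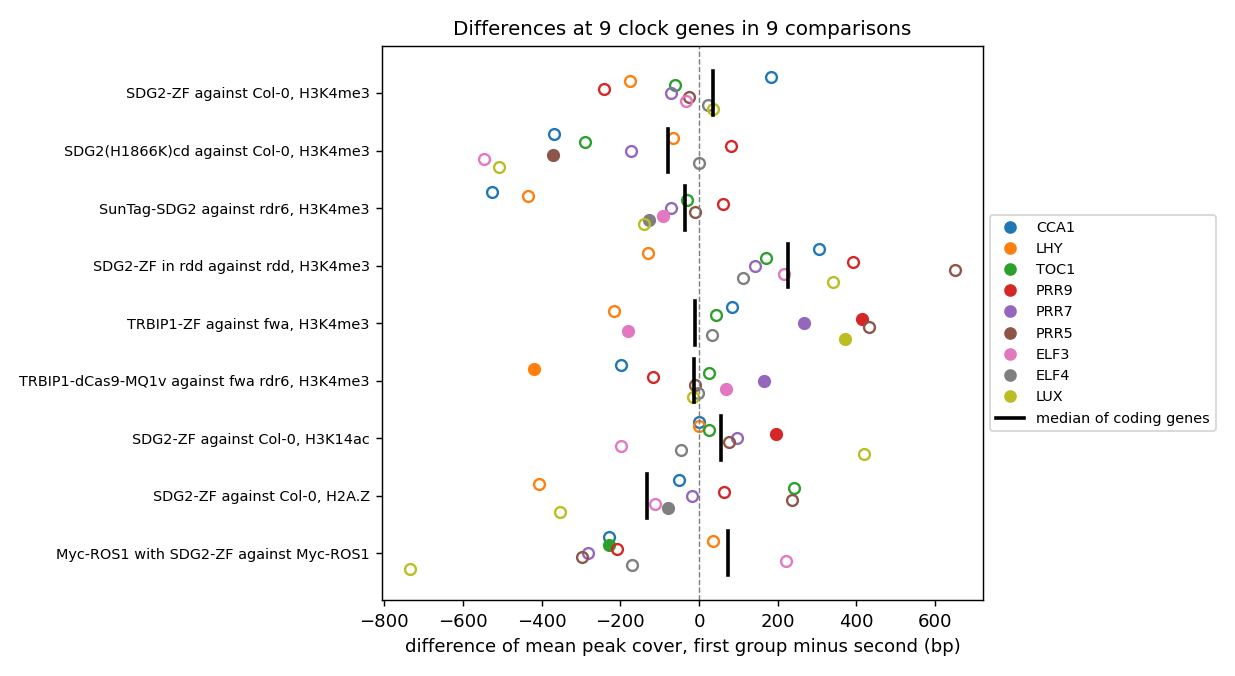
Difference of mean length under peaks (bp, first group minus second) for each of 9 clock genes in the 9 comparisons with at least 2 libraries a group. Filled symbols mark genes whose groups do not overlap, open symbols those that overlap, and black bars the median over coding genes. LHY lies left of 0 in all 6 H3K4me3 comparisons, from −435.5 to −65.0 bp.

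A stratified exact permutation test joined the comparisons of active SDG2 (SDG2-ZF in Col-0, SunTag-SDG2 and SDG2-ZF in rdd) over 20625 coding genes. No gene was called higher (0%) or lower (0%) after Benjamini-Hochberg adjustment over all of them, while 2879 had an unadjusted p under 0.05. Among the members the mean difference ran from −247 bp at LHY (exact p = 0.339, adjusted p = 0.772) to 206 bp at PRR5 (exact p = 0.489, adjusted p = 0.881). LUX had a difference of 78.8 bp (exact p = 0.572). CCA1 had −12.8 bp over its region and −111 bp over the gene span alone, which leaves out PSI-P. In the 2 TRBIP1 comparisons the smallest possible p was 0.0556. PRR7 reached it, with a mean difference of 215 bp and an adjusted p of 0.739 over 18852 coding genes. Over the gene span alone its mean difference was 98.75 bp, and the rest lay in the 1000 bp upstream, where RHL2 starts. LHY followed with −317 bp (exact p = 0.111, adjusted p = 0.817).

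LHY had the lower mean in the line with the fusion in all 6 H3K4me3 comparisons, a pattern picked after its values were seen. Its differences were −177 bp for SDG2-ZF, −65.0 for SDG2(H1866K)cd, −436 for SunTag-SDG2, −129 in rdd, −215 for TRBIP1-ZF and −419 for TRBIP1-dCas9-MQ1v. Of 23396 coding genes 27 (0.115%) had a lower mean in all 6, and LHY was the only member among them. The direction held for the gene span alone, for the 500 bp on either side of the start, among peaks with a −log10 q of at least 5 and with lists cut to 1 length. The number of coding genes lower in all 6 was 30, 160, 29 and 49 under these settings. Leaving out 1 library at a time, it held in 23 of 27 cases. The 4 exceptions were the removal of SDG2(H1866K)cd replicate 3 (248 bp), of its Col-0 replicate 1 (148 bp), of SDG2-ZF in rdd replicate 2 (419 bp) and of rdd replicate 1 (548 bp). Groups overlapped in 5 of the 6 comparisons. In SDG2-ZF in rdd the whole difference came from set 6, since both libraries of set 7 had 0 bp. The median over coding genes was 227 bp in that comparison, and only 0.702% had a difference below that of LHY. The share of genes lower in all 6 is thus limited by that comparison, where the lists of set 7 differed in length. The part of list length in that share was not tested.

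For H3K14ac, SDG2-ZF against Col-0 had 1 member higher and 0 lower (32.3% and 10.4% of 22087 coding genes). PRR9 had 494 and 413 bp against 237 and 278 bp, all in the stretch far into the gene. TOC1 gained the only segment among the members, 109 bp at chr5:24676388-24676496, 1425 to 1533 bp after the start (6.3% of coding genes gained one and 2.94% lost one). A limit of 300 bp removed it. The median was 25.5 bp, beside 56.5 bp over coding genes. Paired by replicate number, PRR9 and LUX were higher and 0 members lower (40.9% and 14.8% of coding genes).

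For H2A.Z, ELF4 was lower in SDG2-ZF (467, 487 and 496 bp) than in Col-0 (595 and 531 bp), by 79.7 bp with an exact permutation p of 0.1. It was the 1 member called lower, none was higher (9.45% and 0.54% of 24241 coding genes), and none gained (0.309%) or lost (2.12%) a segment. When lists were cut to the same number of peaks, the ELF4 difference was 186 bp in the other direction. The median was −49.8 bp, beside −131 bp, and without Col-0 replicate 2 it was −429 bp.

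For Myc-ROS1, TOC1 was lower with SDG2-ZF, at 699 and 536 bp against 843 and 848 bp (exact permutation p = 0.333). It was the only one called: 4.22% of 13398 coding genes were lower and 5.53% higher. No member gained (2.23%) or lost (1.35%) a segment. The median was −228 bp over members and 74.0 bp over coding genes. Of the 4 lists, Myc-ROS1 with SDG2-ZF replicate 2 was the shortest (5580 peaks) and replicate 1 the longest (14212 peaks). Without Myc-ROS1 replicate 2 the median was 0 bp, and over the gene span alone it was −12.5 bp. Paired by replicate number, TOC1 and PRR9 were lower and 0 members higher (8.11% and 11.1% of coding genes).

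Comparisons with a single library on one side carry no test. SDG2-ZF in rdd had more H3K14ac than rdd at all 7 members with a peak (median 529 bp over the 9, beside 666 bp over coding genes), and more H2A.Z at all 8 with a peak (231 bp, beside 267 bp). PRR9 had 1407 bp of H2A.Z against 1337 bp and 604 bp of H3K14ac against 0 bp. For Myc-JMJ14 with TRBIP1-ZF against Myc-JMJ14 the median was 0 bp, beside 168 bp.

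Other genes tied to the clock were read from 2 lists: 22 associated genes, such as GI, the REVEILLE factors and the LNK coactivators, and 7 output genes, such as CO and PIF4. None of the 29 had an adjusted p under 0.05 in the stratified tests. In the TRBIP1 test none could, as its smallest possible exact p was 0.0556. In the active SDG2 test LWD1 (604 bp) and LWD2 (216 bp) had the lowest exact p of that test, 0.00278 (adjusted p = 0.137). Both were higher on average in 3 of 3 comparisons. PIF5 followed with 312 bp (exact p = 0.025, adjusted p = 0.257), and the rest of the 29 had an unadjusted p above 0.05. Of the 22 associated genes, 6 were higher and 1 lower for H3K4me3 in SDG2-ZF, 4 and 8 in SunTag-SDG2, 4 and 0 in rdd, 5 and 1 in TRBIP1-ZF and 4 and 6 in TRBIP1-dCas9-MQ1v. For H3K14ac in SDG2-ZF 12 of the 19 with a peak were higher and 2 lower, where 32.3% and 10.4% of coding genes were. For H3K4me3 the shares of coding genes are those given with each comparison above, such as 25.9% and 11.1% for SDG2-ZF. Of the 7 output genes, 0 were higher and 2 lower for H3K4me3 in SDG2-ZF, 2 and 3 in SunTag-SDG2 and 3 and 0 in rdd, and 1 was higher and 3 lower for H3K14ac. GI (AT1G22770), which stabilises the photoreceptor ZTL, gained 2 H3K14ac segments in SDG2-ZF. They lay 443 to 752 and 2043 to 2264 bp after its start, and a Myc-ROS1 segment of 240 bp was gained around the start, from −53 to 186. RVE7 gained a 227 bp H3K4me3 segment in SDG2-ZF, RVE8 one of 420 bp in rdd and PIF4 one of 296 bp in SunTag-SDG2, while CO lost one of 155 bp there. In SDG2(H1866K)cd, RVE6 and LNK2 lost 133 and 145 bp. With SDG2-ZF, LWD1 and LWD2 gained H3K14ac segments of 273 and 205 bp, and PRR3 and CHE lost 360 and 175 bp.

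For each member, the coding gene elsewhere whose covered length followed it most closely over the 29 H3K4me3 lists was found by Pearson's r of percentiles within each list. These were AT2G30942 for ELF4 (r = 0.963), AT3G16990 for PRR7 (0.958), HR3 for PRR5 (0.909), ROH1 for LHY (0.882), BIM2 for ELF3 (0.862), AT3G06330 for TOC1 (0.841), FDH for LUX (0.819), AT5G35970 for CCA1 (0.813) and GILP for PRR9 (0.769). The lists share sets and depth, and the best of all coding genes is given, so these values describe likeness in these lists only. Between members, LHY and ELF4 ran opposite, at r = −0.772, and TOC1 and PRR7 ran together, at 0.713. In all 6 lists of set 11 ELF4 had 0 bp while LHY had 268 to 1584 bp. TOC1 and PRR7 both had 0 bp in SDG2(H1866K)cd replicate 3. Values of r without set 11 were not computed.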

How the data were processed

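Peak lists, 1 for each of 50 ChIP-seq libraries, were analysed. According to the submitters' notes the authors trimmed reads with Trim Galore 0.6.5, mapped them to TAIR10 with Bowtie2 2.1.0, removed duplicates with SAMtools 1.9 and called peaks per library with MACS2 2.2.1 (tracks: deepTools 3.1.3). The deposited lists give a fold over background, a ratio, at the summit and −log10 p and −log10 q values. They were not all made at 1 threshold: the lowest −log10 q was near 2 in some and near 1.3 in others. Reads were not used here. The study's reporting notes give read numbers for many of the libraries, but these were not used either. Lists were compared by number of peaks, covered length and median fold.

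In Python 3.11.15 with numpy 2.4.6 and pandas 2.3.3 (figures: matplotlib 3.10.9), 10375 lines that repeated an interval were merged, organelle peaks were left out, and the bases of each gene region under peaks were counted for 27444 coding genes. A gene was tested where it had a peak in at least 1 library of the comparison. Exact two-sided permutation tests used library labels, stratified by comparison where comparisons were joined, with Benjamini-Hochberg adjustment over all coding genes and a threshold of 0.05. The tests were checked on simulated data. Shorter regions, stricter peaks, equal list sizes, left-out libraries and a replicate block were alternatives, and a further 12 (on counts of start peaks, wide spread, H3K14ac and LHY) were added after seeing the data.

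The replicate number follows the label set in the rdd, TRBIP1-ZF, Myc-ROS1 and H2A.Z comparisons. The correlation of the deviations of same-numbered libraries from the group means, over coding genes, was 0.252, 0.312, 0.463, and 0.101 and 0.0524. The study's reporting notes say that treated and control plants were raised together, with a plate for each replicate, but not which libraries share a plate or what a set is. Paired calls are therefore given where they move a count. The study's methods call the ChIP-seq replicates biological. The named genes are all 9 members, other clock genes with a gained or lost segment, and for each member its most similar gene. Members, gene lists and tests were chosen with earlier results of these data known.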

Additional observations from a re-analysis of the deposited data

Results flagged for a closer look

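The SDG2(H1866K)cd group held a library far from the others at 2 of the 9 members. By the peak names, replicates 3 and 4 of this group came from another line than the rest. In SDG2(H1866K)cd replicate 3 the LHY region had 268 bp under H3K4me3 peaks, against 1467 to 1584 bp in the other 3 replicates, and the PRR7 region had 0 bp, against 1243 to 1267 bp. Dixon's ratio of the gap to the range was 0.911 and 0.981, above the 95% limit for 4 libraries. This was the only group large enough, so 9 genes were examined, and chance passes about 1 in 20. The library had 9647 peaks, against 23067 to 27855 in the other 3. Its part in the 2 values was not tested.

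ELF3 moved in opposite directions under the TRBIP1 fusions. Both TRBIP1-ZF libraries were below both fwa libraries (difference −180.5 bp), and both TRBIP1-dCas9-MQ1v libraries were above both fwa rdr6 libraries (67.5 bp). The difference between these effects was not tested.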

How the results depend on the processing

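Counts of members called higher or lower in a comparison were small and moved with the processing. Within 500 bp of the start, lower members numbered 1 for SDG2-ZF, 0 for SDG2(H1866K)cd, 6 for SunTag-SDG2 and 0 for H2A.Z, higher members 1 in rdd and 1 for TRBIP1-dCas9-MQ1v, and lower ones 1 for H3K14ac. The H3K14ac median in rdd was then 303 bp. Over the gene span alone, 2 members were lower for SDG2(H1866K)cd and 1 for H3K14ac, and the Myc-ROS1 median was −12.5 bp. Among peaks with a −log10 q of at least 5, 0 were lower for SDG2(H1866K)cd, where PRR5 turned to 184.75 bp, 1 was higher in rdd and 0 were lower for TRBIP1-dCas9-MQ1v. With equal numbers of peaks, 2 were lower for SDG2-ZF, 0 for SDG2(H1866K)cd (PRR5 49.25 bp) and 0 for H2A.Z (ELF4 185.833 bp), and the H3K14ac median in rdd was 0 bp. Allowing 50% of a segment under the other group gave 2 members with a gained segment in rdd and 2 for H3K14ac, and a length of 300 bp gave 0 for H3K14ac. Shares of coding genes called under these settings were not counted, so these counts are no result about the members. The causes were not tested.

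With the replicate block, in which only libraries of the same number are compared, 2 members were higher and 1 lower for SDG2-ZF, 3 and 2 for SDG2(H1866K)cd, 4 lower for SunTag-SDG2, 4 higher in rdd, 5 higher for TRBIP1-ZF, 3 lower for TRBIP1-dCas9-MQ1v, 2 higher for H3K14ac and 2 lower for Myc-ROS1. The number follows the label set in the rdd, TRBIP1-ZF, H2A.Z and Myc-ROS1 comparisons. In the others all libraries are of 1 set, and the number may stand for a plate.

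Leaving out each library in turn, higher members ranged from 0 to 3 for SDG2-ZF, 0 to 2 for SDG2(H1866K)cd, 0 to 2 for SunTag-SDG2, 1 to 7 in rdd, 3 to 6 for TRBIP1-ZF, 2 to 4 for TRBIP1-dCas9-MQ1v, 1 to 5 for H3K14ac, 0 to 2 for H2A.Z and 0 to 2 for Myc-ROS1. Lower members ranged from 0 to 4, 1 to 2, 2 to 6, 0 to 1, 1 to 3, 3 to 3, 0 to 3, 1 to 7 and 1 to 6 in the same order. Medians ranged from 0 to 153 bp for H3K14ac, −429 to 118 bp for H2A.Z and −298 to 0 bp for Myc-ROS1. With fewer libraries a group, more genes fall without overlap, and the shares of coding genes were not counted here. The ranges therefore describe how calls depend on single libraries and are no result about the members.

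Members with an H3K4me3 start peak in every library numbered 6 without set 11, 0 at a −log10 q of at least 5 and 1 with equal peaks. Shares of coding genes at the stricter q and with equal peaks were not counted. The members above 90% of coding genes in spread were LHY, PRR9 and ELF4. Without set 11 they were LHY and PRR9, at the stricter q LHY, PRR5 and ELF4, and with equal peaks PRR5, PRR7 and ELF4. These values and those on LHY and on absent H3K14ac were chosen after seeing the data. In all, 81 alternative values of the counts and medians moved and 261 did not. A count moved if it went to or from 0 or changed by more than 1.5-fold. A median moved only if it shifted by at least the pooled SD of the library medians. That SD was 307 bp for H3K4me3, 227 bp for H2A.Z, 148 bp for Myc and 81.6 bp for H3K14ac. A median could therefore change sign and still count as unmoved. Of the values of single genes, 3 reversed, 9 lost a call and 112 kept direction and call. Read depth was not used, so its effect on these values was not tested.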
